A study of Mus musculus with 13 samples.

Results

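Rpph1 is the RNA subunit of mouse RNase P, and its chemical probing profile in living fibroblasts is described here nucleotide by nucleotide. It is 1 of 3 RNAs targeted in the series, which holds 13 samples, and all nucleotides of its profile were taken. Of 319 nucleotides (nt), 315 have a value, out of 2259 nucleotide values in the 6 profiles of the series. The profile was made from 1 sample treated with NAI and 1 treated with DMSO only (Rpph1_control_NAI and Rpph1_control_DMSO, both per the labels), so there is no replicate. The values are therefore descriptions, and no test between conditions exists. The cells were mouse embryonic fibroblasts (MEFs) of the genotype Mbnl1-/-/Mbnl2-/-, which lack a pair of splicing regulators. They were probed with NAI at 100 mM for 12 minutes before total RNA was extracted. The series also induced MBNL1 with doxycycline (1 ug/mL, 18 to 20 hours), and the labels do not say whether the cells used for Rpph1 were induced. Only targeted RNAs were probed, so the fibroblast identity of the cells could not be checked against marker genes. The labels do not say whether both samples came from the same culture, or whether the cell line is a single clone.

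RNase P is the ribonucleoprotein enzyme that cuts the 5′ leader from precursor transfer RNAs. Its RNA is the catalyst. It has a catalytic domain, built around the P4 helix that closes the active site, and a specificity domain that grips the body of the precursor. In the sequence, the specificity domain lies between the strands of P4. The P1 helix joins the ends of the RNA, and the P3 arm, with a large internal loop, is a landing site of protein subunits in eukaryotes. In SHAPE-MaP (selective 2′-hydroxyl acylation read by mutational profiling), NAI acylates flexible nucleotides, and each adduct leaves a mutation in the cDNA. Mobile nucleotides score high. Pairing, stacking or a bound protein can each make a nucleotide score low, and the profile cannot tell these apart.

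The profiled sequence matched chromosome 14 of GRCm38 (mm10), 50807450 to 50807768, on the minus strand. The GENCODE gene Rpph1 is annotated as a ribozyme of 1 exon at 50807449 to 50807767, shifted by 1 nucleotide from the profile, and RefSeq gives 50807447 to 50807771. On the same strand, nt 37 to 269 of the RNA also lie in an exon of the protein-coding gene Ccnb1ip1 (50807500 to 50807732) that is annotated as UTR. Reads of that transcript and of Rpph1 cannot be told apart there. In the sequences below, taken 5′ to 3′ from the deposited profile, capitals mark nucleotides with a reactivity of at least 0.85, and all others are in lower case. They are shown because the capitals fall in clusters that the values below describe. Coordinates are GRCm38 on the minus strand. The loop region and the 3′ hairpin are elements of a folding model guided by these reactivities, described below. In that model only nt 247 to 261 of the loop region form the loop, and the nucleotides on both sides of it are paired.
P3, nt 22 to 44, chr14:50807725-50807747: ggggccacgugcugagugcGUgu
P3, nt 45 to 58, chr14:50807711-50807724: cacucUUCGgcccc
P4, 5′ strand, nt 65 to 72, chr14:50807697-50807704: gGucugag
P4, 3′ strand, nt 300 to 307, chr14:50807462-50807469: uucagacu
Linker, nt 80 to 87, chr14:50807682-50807689: ccUCCcGc
Hairpin, nt 88 to 102, chr14:50807667-50807681: ggcccuaaccgggcu
Hairpin, nt 103 to 118, chr14:50807651-50807666: cuccccgAgCggggag
Hairpin, nt 131 to 143, chr14:50807626-50807638: agagCAGggcucu
Stretch before P12, nt 146 to 169, chr14:50807600-50807623: gcuugggcAGaCUgggcaggagaa
P12, nt 170 to 184, chr14:50807585-50807599: gccccgAGUCggggc
Repeat copy 1, nt 183 to 205, chr14:50807564-50807586: gcggauGccUcccucgccggagc
Repeat copy 2, nt 204 to 226, chr14:50807543-50807565: gcggaUgccUcccucGccggagc
Loop region, nt 242 to 266, chr14:50807503-50807527: ggccagcAGUgCGagUucaauggcu
3′ hairpin, nt 270 to 292, chr14:50807477-50807499: gugaggcAccUCcCgggccucau
3′ end, nt 308 to 319, chr14:50807450-50807461: acUcUcccCCgc

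Most of the RNA was unreactive, and reactivity was gathered in short clusters. The median reactivity was 0.133 and the mean 0.435, in the authors' unit. Reactivity below 0.4 was found at 71.1% of nucleotides and at least 0.85 at 16.5% (52 of 315), with 39 nucleotides in between. These limits are a common convention for normalized SHAPE values. Their normalization is not stated in the labels or the file, so the classes are relative within this profile. The nucleotides nearest the upper limit were G235 (0.839) and C21 (0.843) below it and C253 and U51 (both 0.941) above it. Nearest the lower limit were G229 and G284 (both 0.388) and C199 (0.408). Among nucleotides whose error was below 0.5 of the reactivity, the top 20 fell into 11 clusters. Of these, G3, U280, U310 and C316 each stood alone, and all but U280 lie near the ends of the RNA. The clusters with 3 of the top 20 were nt 50 to 53 in P3 and nt 249 to 254 in the 3′ part. By base, 14 of 51 U, 10 of 54 A, 15 of 109 G and 13 of 101 C were at or above 0.85.

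**Figure D1:**
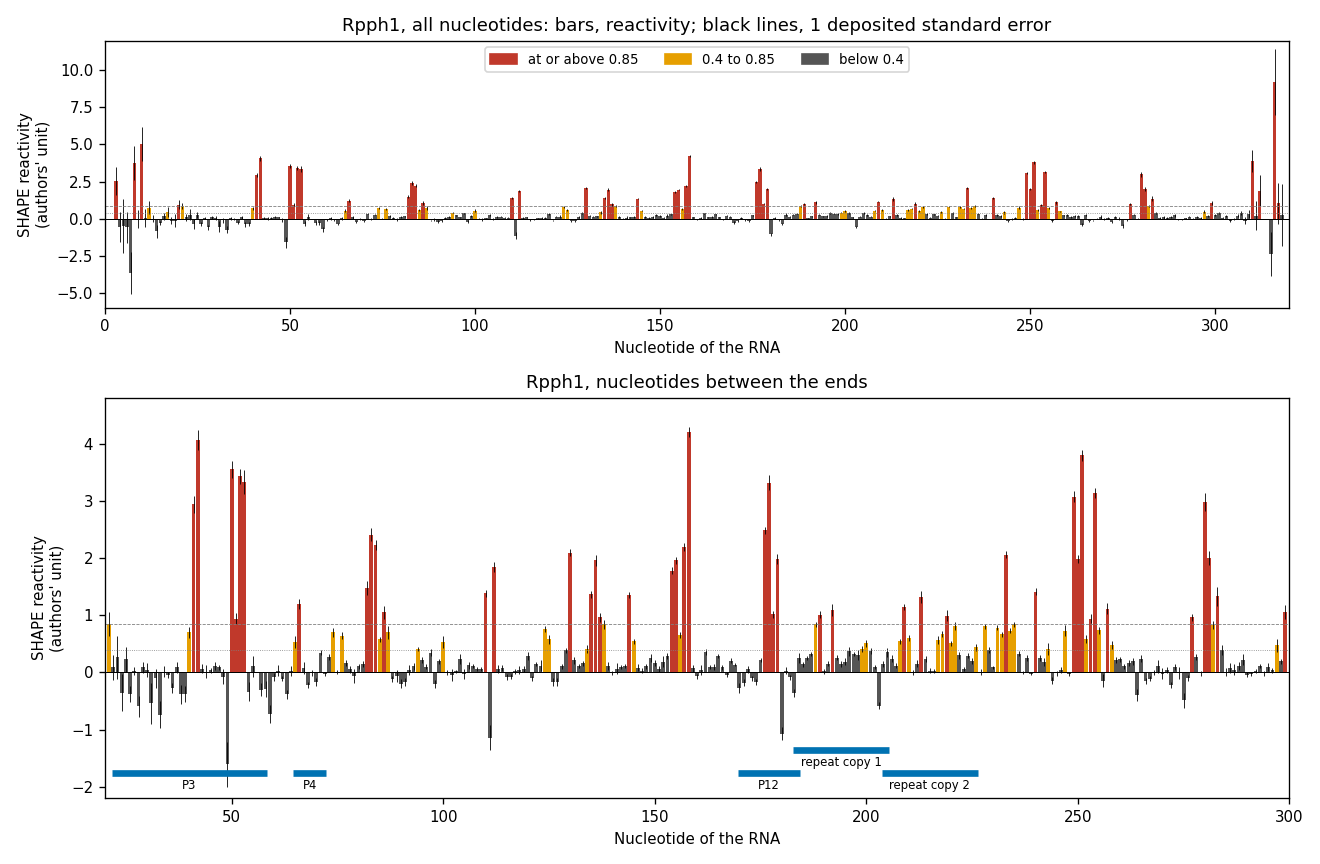
SHAPE reactivity (y axis, authors' unit) at each nucleotide of Rpph1 (x axis), over the whole RNA (top) and over nt 21 to 299 (bottom), with lines of 1 deposited standard error and bars coloured by reactivity class. Dotted and dashed lines mark 0.4 and 0.85, and blue lines mark P3, the 5′ strand of P4, P12 and both repeat copies. The bars at the ends have long error lines, and the reactive bars of the interior stand in narrow groups.

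The authors' standard errors were largest at both ends and smaller in between. Their median was 0.428 over the 37 measured nucleotides of the first and last 20, against 0.0609 over the other 278. All 16 errors above 0.5 in Rpph1 lay within those ends. Past the 5′ end the errors stayed raised through P3, with medians of 0.152 over nt 21 to 40 and 0.132 over nt 41 to 60. Of 36 errors above 0.2, 24 lay in the first 40 nucleotides. In the first 20 nucleotides the largest errors were at G5 (-0.490, error 1.81), A7 (-3.67, error 1.42), A10 (5.02, error 1.14), G8 (3.75, error 1.14) and G6 (-0.593, error 1.05). In the last 20 they were at C316 (9.20, error 2.24), G318 (0.233, error 2.09), C315 (-2.36, error 1.48), C317 (1.03, error 1.38) and U312 (1.88, error 1.05). The highest value of the profile, at C316, and the lowest, at A7, thus both lie where the error exceeds 1. G1 and G2 have a value and an error of exactly 0, and nt 56, 313, 314 and 319 have no value. Over the profile, 203 nucleotides (64.4%) differed from 0 by more than 1.96 standard errors. This held for 68.3% of the interior nucleotides and for 35.1% of the end ones. Rn7SK, the RNA of the 7SK particle and the other whole small RNA of the series, had a smaller median error (0.0225). It had 1 error above 0.5, and 77.0% of its 313 values differed from 0 by that margin. Its errors were also larger at the ends, with a median of 0.210 against 0.0213 in the interior. Only 24 of its end nucleotides have a value, so the counts of large errors are not alike. Neither the labels nor the file states the read depth or how the standard error was computed, and no second profile shows how far a value would move between samples.

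**Figure D2:**
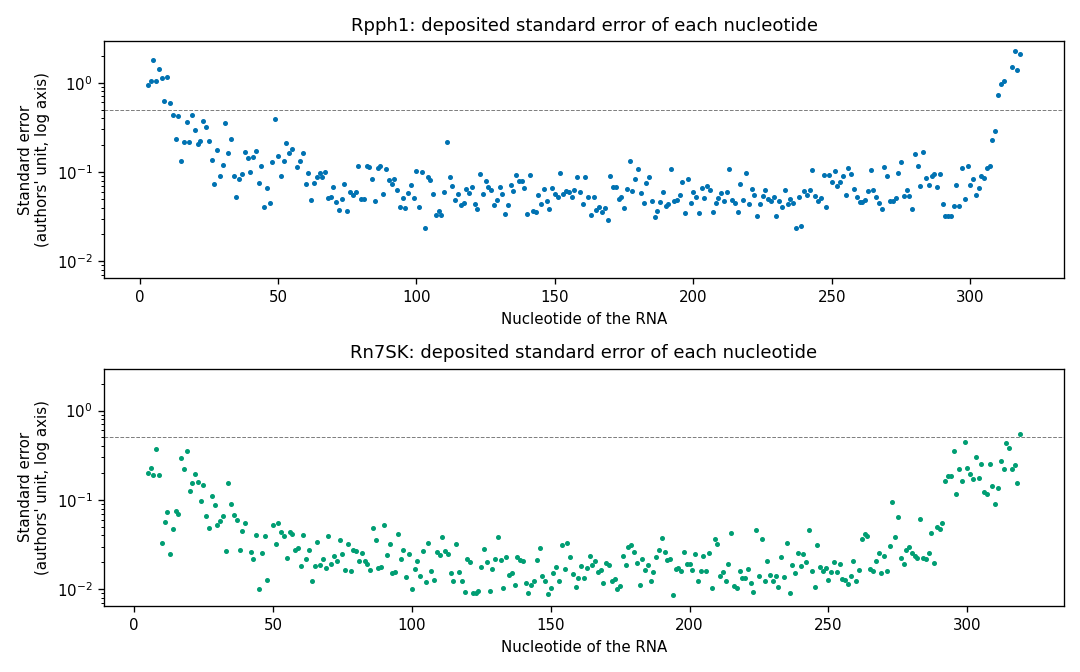
Deposited standard error (y axis, log scale, authors' unit) of each nucleotide of Rpph1 (top) and Rn7SK (bottom) along the RNA (x axis), with a dashed line at 0.5. Nucleotides with an error of exactly 0 are not drawn. In Rpph1 all 16 errors above 0.5 lie in the first or last 20 nucleotides.

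The P1 helix joins the first and last nucleotides and could not be read in this profile. The longest match between the ends that can pair, with G-U pairs allowed, is 5 base pairs of nt 5 to 9 with nt 310 to 314. Its 5′ strand averaged -0.209 with a propagated error of 0.568, and 4 of its 5 nucleotides were below 0. On its 3′ strand, U310 (3.89, error 0.734), C311 (0.184, error 0.976) and U312 (1.88, error 1.05) were measured and the other nucleotides were not. Helices are those of a minimum free energy model with P1 and P4 imposed, called the anchored model, unless the model guided by reactivities, which adds the profile itself as energies, is named. A propagated error here is the error of a mean, computed from the deposited errors as if they were independent.

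In the P3 arm the helices and the 5′ side of the internal loop were unreactive, and reactivity was high in the end loop and on the 3′ side. P3 was taken as the hairpin with the most base pairs between the 5′ strands of P1 and P4 (nt 22 to 58, chromosome 14, 50807711 to 50807747). All 18 nucleotides from 22 to 39 were below 0.4, with a mean of -0.163 (propagated error 0.0464). They span the outer 5′ strand, the 5′ side of the internal loop (nt 28 to 34) and the inner 5′ strand. The 5′ side of the loop, which the model leaves unpaired but for G32, averaged -0.262 (error 0.0742) and its highest value was 0.0871. The loop's 3′ side held U50 at 3.55 (error 0.150), U51 at 0.941 (error 0.0896) and C52, modelled as pairing with G32 across the loop, at 3.43 (error 0.133). The mean of those 3 nucleotides was 2.64 (propagated error 0.0732), so the sides of this internal loop were far apart relative to the deposited errors. The neighbouring G53, modelled as paired with C27 at the edge of the outer helix, was as reactive as the loop (3.33, error 0.210). The other measured nucleotides of that strand lay between -0.340 and 0.104. In the end loop, G41 (2.94, error 0.146) and U42 (4.07, error 0.172) were high, C40 was intermediate (0.699, error 0.101), and G43 (0.0619) and U44 (0.0150) were near 0. The inner helix held no nucleotide above 0.111. Its last nucleotide, C49, had -1.61 (error 0.389), next to the high U50.

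P4 and the nucleotides leading to it were mostly below 0.4. The 6 nucleotides between P3 and P4 (nt 59 to 64) reached at most 0.0259, with a mean of -0.208 (propagated error 0.0400). P4 was found as 8 base pairs between nt 65 to 72 (50807697 to 50807704) and nt 300 to 307 (50807462 to 50807469), the strands that belong to the most conserved regions of RNase P RNA, called CR-I and CR-V. On the 5′ strand, G65 had 0.531 (error 0.0969) and G66 had 1.20 (error 0.0878). U67 had 0.0763, C68 had -0.217, U69 had -0.0112, G70 had -0.168, A71 had 0.343 and G72 had -0.0241. The reactive nucleotides of this strand were thus its first ones, at the outer end of the helix. On the 3′ strand, U300 to U307 lay between -0.147 and 0.383, with a mean of 0.163 (propagated error 0.0309). Of the 16 nucleotides of P4, 14 were below 0.4, against 71.1% in the whole RNA, and 1 was at or above 0.85, against 16.5%. Over the 22 helices of at least 3 base pairs in the anchored model, P4 included, these shares were 79.1% and 11.4%. The median of P4 was 0.137, against 0.133 for the whole RNA. A second helix of 5 base pairs lies directly inside P4, nt 75 to 79 with nt 295 to 299. Its values ran from -0.0623 to 0.644 on the 5′ strand and from 0.0392 to 1.06 on the 3′ strand, where A299, next to P4, was the highest. The folding model of the sequence alone holds neither of these helices, and they appear once the P4 pairs are imposed.

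The linker that follows, nt 80 to 87, was one of the flexible parts of the RNA. C80 and C81 were at 0.104 and 0.151, and U82 (1.47, error 0.118), C83 (2.40, error 0.115), C84 (2.23, error 0.0833), C85 (0.576), G86 (1.05, error 0.110) and C87 (0.701) were higher. All 8 were above 0 by more than 1.96 errors, as were 52.1% of all nucleotides. Its mean was 1.09 (propagated error 0.0324). The model with P1 and P4 imposed leaves the linker unpaired, and the model of the sequence alone pairs all of it but C87.

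Between the strands of P4, where the specificity domain lies, the hairpins differed in their loops more than in their stems. The hairpin of nt 88 to 102 had a stem mean of -0.00332 (propagated error 0.0253, 10 nucleotides), with G100 the highest at 0.532. Its loop of 5 nucleotides was low as well, from 0.0997 at C96 to 0.410 at A94. The hairpin of nt 103 to 118 had an equally unreactive stem (mean 0.0468, error 0.0165, highest 0.234). Its loop of 4 nucleotides alternated. G109 had 0.0616, A110 had 1.38 (error 0.0598), G111 had -1.14 (error 0.215) and C112 had 1.85 (error 0.0882). All 22 stem nucleotides of this pair of hairpins but G100 were below 0.4. The third, nt 131 to 143, had reactive nucleotides at the turn, with C135 at 1.36, A136 at 1.96, G137 at 0.962 and G138 at 0.838, and G130 just before it had 2.09 (error 0.0672). That hairpin is absent from the model guided by reactivities.

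P12 had a highly reactive loop and, apart from C179 at its closing pair, an unreactive stem. P12 is an arm of the specificity domain. It was taken here as the hairpin between the motifs AGGAGA and GGAUGCC (nt 170 to 184, 50807585 to 50807599), where P12 lies in RNase P RNAs. Its loop held A176 at 2.48 (error 0.0640), G177 at 3.31 (error 0.134) and U178 at 1.02 (error 0.0609). C179, modelled as pairing with G175 to close that loop, was just as reactive (1.98, error 0.0829), while G175 had 0.218. The mean over all 12 stem nucleotides was 0.0249 (propagated error 0.0207), and 11 of them were below 0.4. Without the closing pair, which was set apart after its values were seen, the mean of the other 10 was -0.190 (propagated error 0.0230). Both means include G180 at -1.07 (error 0.109), next to C179. Upstream of P12 a further reactive cluster covered nt 154 to 158, with A154 at 1.78, G155 at 1.96, A156 at 0.649, C157 at 2.19 and U158 at 4.21 (error 0.0871). U158 was the most reactive nucleotide outside the ends. The 17 nucleotides that follow, nt 159 to 175, were all below 0.4 (mean 0.0483, propagated error 0.0133), although the model leaves 5 of them unpaired. A166, G167, A168 and A169, next to P12, had 0.0885, -0.0371, 0.204 and 0.133. This cluster and the runs of low values were picked out by their values.

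Mouse Rpph1 holds a direct repeat that starts at the end of P12, and its copies had similar profiles. A stretch of 23 nucleotides occurs at nt 183 to 205 and again at nt 204 to 226, 21 nucleotides further on, so that nt 204 and 205 belong to both copies. Both copies had low values at the CC of places 8 and 9 (0.0164 and 0.155 in copy 1, -0.00105 and 0.149 in copy 2). Both rose at the U of place 10, U192 (1.09, error 0.107) and U213 (1.32, error 0.107). The U and G of places 6 and 7 were also reactive in both, U188 (0.839) and G189 (1.01) in copy 1 and U209 (1.14) and G210 (0.603) in copy 2. Across the 23 places Pearson's r was 0.699 and Spearman's rho 0.799. For all other nucleotides set against the nucleotide 21 further on, r was 0.0394 and rho 0.128 over 270 pairs. Those pairs were not matched for base, as the copies are, and they include the ends with their large errors. The part of base identity in the likeness of the copies was not tested. All these values come from 1 library pair and neighbouring nucleotides are not independent, so the correlations are descriptions. The median absolute difference between copies was 0.130, against a median combined error of 0.0752. At 10 of the 23 places the copies differed by more than 1.96 combined errors. The widest gaps were at place 21, A203 (-0.581, error 0.0668) and A224 (0.291, error 0.0441), and at place 16, G198 (0.301, error 0.0833) and G219 (0.994, error 0.0969). Copy 2 was higher at 14 places, with a mean of 0.423 against 0.287 in copy 1. How reads were placed between the copies is not given in the sources used here, and its part in the likeness was not tested.

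**Figure D3:**
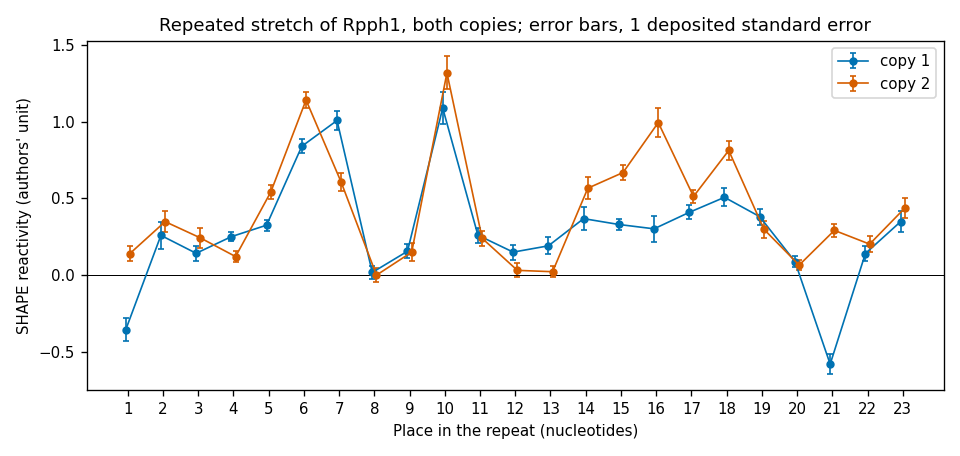
SHAPE reactivity (y axis, authors' unit) at the 23 places of the repeated stretch (x axis), in copy 1 (nt 183 to 205) and copy 2 (nt 204 to 226), with error bars of 1 deposited standard error. Both copies are above 0.6 at places 6, 7 and 10 and low at places 8 and 9, and they are farthest apart at places 16 and 21.

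The 3′ part held a broad reactive stretch, a loop only in the guided model, followed by a long unreactive stretch. After the repeat, nt 227 to 236 had a mean of 0.668 (propagated error 0.0151), with C233 at 2.06, and A240 followed at 1.41. From nt 247 to 261 lay a loop of 15 nucleotides in the model guided by reactivities. There A249 (3.07, error 0.0931), G250 (1.98, error 0.0773), U251 (3.79, error 0.101) and G254 (3.14, error 0.0903) were high, and C253 (0.941) and U257 (1.11) were above 0.85 as well. C248 (-0.0308) and G256 (-0.146) in the same loop were near 0. The anchored model and the model of the sequence alone instead pair nt 250 to 259, which hold all of these reactive nucleotides but A249. Then nt 259 to 276, 18 nucleotides, were all below 0.4 with a mean of -0.00575 (propagated error 0.0169), as long a run as the one in P3. In a hairpin of the guided model at nt 270 to 292, the outer stem pairs nt 270 to 276 with nt 286 to 292. Its mean was -0.0208 (propagated error 0.0201), with all 14 nucleotides below 0.4. The loop of that hairpin held U280 at 2.97 (error 0.160), C281 at 2.002 (error 0.118), C282 at 0.826 and C283 at 1.33 (error 0.166). A277, unpaired between the outer stem and the inner pairs, had 0.960. The inner pairs join C278 (0.266) with G285 (0.0147) and C279 (-0.0168) with G284 (0.388). These helices come from a model that was fitted to the same values, so the low stems and high loops are no separate evidence for them. Before the 3′ strand of P4, nt 284 to 296 were all below 0.4 (mean 0.0807, error 0.0183). Past P4 the values return to the large errors of the 3′ end.

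**Figure D4:**
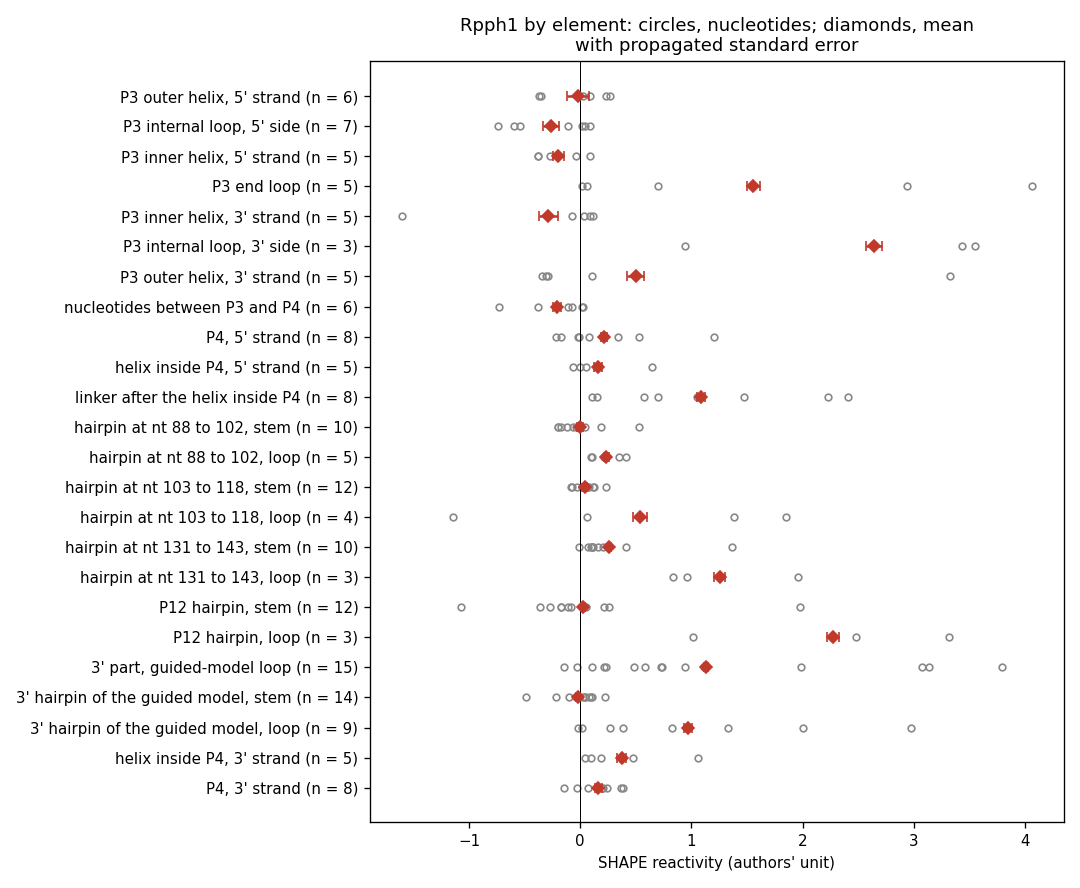
SHAPE reactivity (x axis, authors' unit) of the nucleotides (circles) of each element of Rpph1 (y axis, in sequence order, with the number of measured nucleotides), and their mean with its propagated standard error (diamonds). Most stems sit near 0, with means of 0.0249 for P12, whose reactive point is C179, and -0.0208 for the 3′ hairpin. The loops of P3, P12 and the 3′ part reach 3 or more. The 3′ loop and hairpin come from the model guided by these reactivities, so their values are no separate evidence for them. The loop drawn for the 3′ hairpin, nt 277 to 285, includes nucleotides that this model pairs.

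In all, 10 runs of 8 or more measured nucleotides stayed below 0.4, covering 120 nucleotides with a mean of 0.00173. The longest were nt 22 to 39 and nt 259 to 276 (18 each), nt 159 to 175 (17), nt 284 to 296 (13) and nt 113 to 123 (11). The others were nt 300 to 309, 101 to 109, 57 to 64, 146 to 153 and 180 to 187. Of the 120 nucleotides, 89 (74.2%) were paired in the anchored model, close to the 67.0% of all measured nucleotides. The others include the 5′ side of the P3 internal loop and the nucleotides between P3 and P4. Between P3 and P4 the models disagree: U59 to G62 are paired in the model of the sequence alone and in the guided model.

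Values below 0 also had a pattern. They were found at 82 nucleotides, 39 of which were below 0 by more than 1.96 errors (12.4% of the RNA). They were more frequent among G (31.2%) and C (29.7%) than among A (18.5%) and U (15.7%). The 5 nucleotides below -1 were A7, C49, G111, G180 and C315, and all 5 had a neighbour at or above 0.85. A7 (error 1.42) and C315 (error 1.48) lie in the ends, and their high neighbours G8 and C316 have errors of 1.14 and 2.24. Of the 13 nucleotides below -0.5, 6 had a neighbour at or above 0.85. Among all measured nucleotides 28.3% had such a neighbour. Those below -1 were singled out after their values were seen.

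The folding models account for part of the pattern. In the anchored model, the minimum free energy structure with P1 and P4 imposed, 104 measured nucleotides are unpaired and average 0.708, and 211 are paired and average 0.2998. The difference was 0.408 (propagated error 0.0359), with an area under the ROC curve of 0.634, where 0.5 means no separation. By base the gap was 0.615 for A, 0.475 for U, 0.317 for G and 0.316 for C. Nucleotides at or above 0.85 made up 26.0% of the unpaired and 11.8% of the paired ones, against 16.5% of all. Of the 25 reactive nucleotides modelled as paired, 15 were in the first or last pair of a helix, as were 97 of the 211 measured paired nucleotides. With reactivities as pseudo-energies, which makes the model depend on the profile, the ROC area was 0.742. That model kept 11 of 22 helices whole, among them P1 and P4, which were imposed, both helices of P3, the hairpin of nt 103 to 118 and P12. It dropped 10. Of the dropped helices, 2 lie at the ends of the RNA and 8 lie between nt 119 and nt 292. Pairings that cross P4 cannot be drawn by either model.

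**Figure D5:**
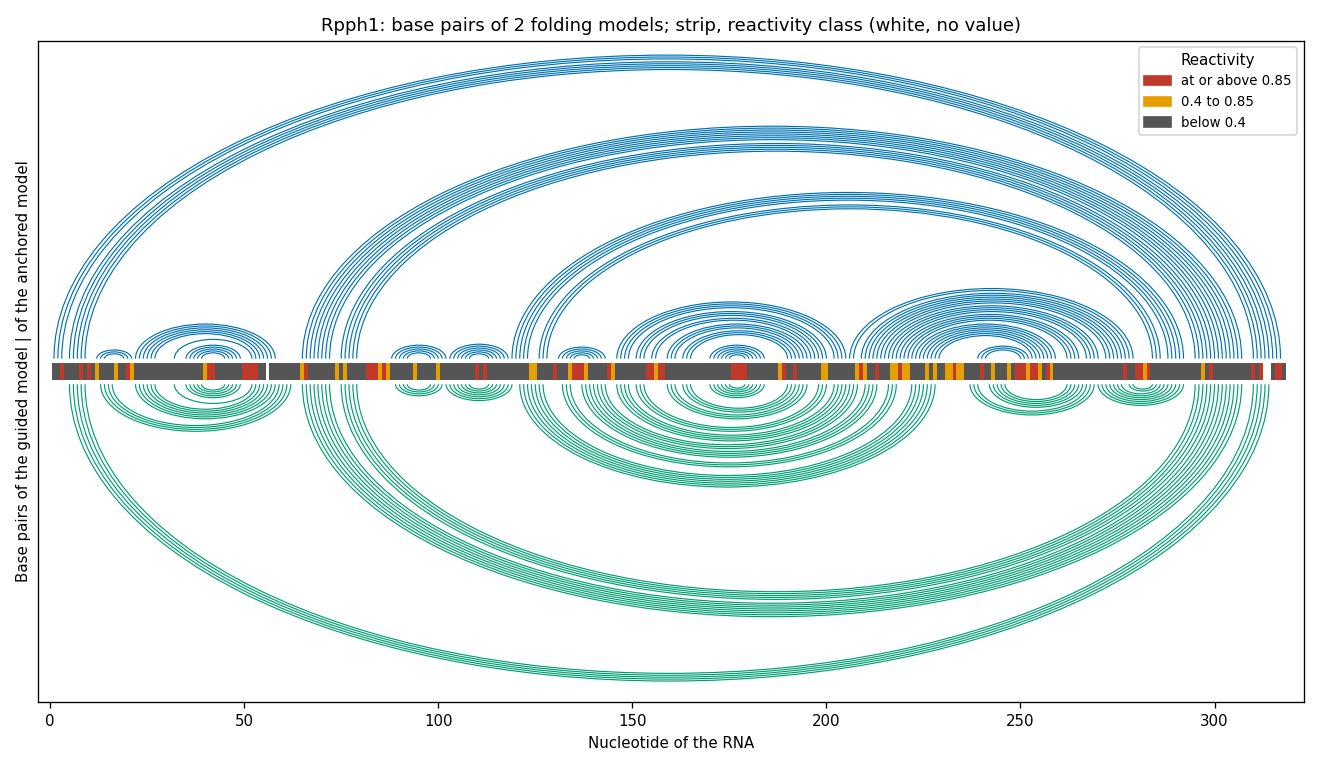
Base pairs (arcs) of the anchored model (above) and of the model guided by reactivities (below) along the nucleotides of Rpph1 (x axis), with a strip of reactivity classes between them. P1, P4, P3 and P12 appear in both. The helices that the guided model drops lie at the ends and between nt 119 and nt 292.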

How the data were processed

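Per the labels, 1 NAI and 1 DMSO sample lie behind the Rpph1 profile. The authors deposited reactivity scores, made from the NAI and DMSO samples on an unstated scale, each with its error and with -999 for no value. The build was mm10, per the submitters' processing notes. The tool that counted mutations, the normalization and the depth are not stated in the labels or the file, so no counting interval is printed.

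The sequence was matched to chromosome 14 of GRCm38 (RefSeq genome) and read against GENCODE M21. Alternatives covered the structure model, thresholds, ends, errors and negative values. Structures were predicted with ViennaRNA 2.7.2 as minimum free energy structures. The anchored model imposes P1 (longest match of the first with the last 20 nt) and P4 (first GUCUG with last CAGAC, extended while complementary). P3 is the hairpin with the most pairs between the 5′ strands of P1 and P4, since a small hairpin precedes it. The guided model also takes pseudo-energies after Deigan from the reactivities, with slope 1.8 and intercept -0.6 and none for values below 0. P2 was not assigned. The hairpins, P12, the repeat and the 3′ elements were chosen after the values were seen.

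Nucleotides named are the 20 most reactive with a standard error below 0.5 of the reactivity, the 5 largest errors in each end, those without a value or at 0, runs of 8 or more below 0.4, and P4, plus members of the elements described. Members, elements and lists were chosen with earlier results of these data known. Errors of means assume independent nucleotides, an assumption that was not tested. The scripts were run on simulated data with independent errors. Python 3.11.15, numpy 2.4.6, pandas 2.3.3, scipy 1.17.1 and matplotlib 3.10.9 were used.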

Additional observations from a re-analysis of the deposited data

How the results depend on the processing

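Shares of nucleotides below 0.4 and at or above 0.85 were 70.9 to 71.9% and 15.1 to 16.6% in 3 alternatives at these limits. These alternatives used 278, 299 and 313 of the same 315 nucleotides, so large changes were unlikely. With limits of 0.3 and 0.7 instead, 66.0% lay below the lower and 20.95% at or above the upper. The gap between unpaired and paired nucleotides (0.408) kept its direction in the 9 alternatives. It was 0.341 with the sequence alone, 0.734 guided by reactivities, 0.317 with pairing probability above 0.5 and 0.213 as medians. It was 0.299 weighted by errors, 0.480 without the ends and 0.448 without errors above 0.5. The guided model was fitted to the same values, so the direction of its gap is no separate evidence. The error gap of ends over interior (0.367) was 0.160 with ends of 30 nt, 0.988 with ends of 10 nt and 0.563 as means. Of the 42 element means, 9 lay below 0, and setting values below 0 to 0 turned all 9 by construction. Of the 9, 5 had lain below 0 by more than 1.96 propagated errors. They became 0.0211 (P3 internal loop, 5′ side), 0.0183 and 0.0478 (P3 inner helix strands), 0.00770 (between P3 and P4) and 0.0341 (P12 stem without its closing pair). As medians 6 changed sign, of which 2 had differed from 0 by more than 1.96 propagated errors and became -0.291 (P3 outer helix, 3′ strand, with G53 at 3.33) and 0.0378 (P3 inner helix, 3′ strand, with C49 at -1.61). Leaving out errors above 0.5 turned 0 of 40. No paired analysis was possible because the profile has no replicate. Depth is unknown, and no replicate shows the spread between samples.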
